A study of Zea mays with 68 samples.

Results

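The genes described here are the 200 of 109715 gene rows that stood lowest in the vegetative meristem of maize relative to the stem and the female flowers. Each row holds FPKM, the fragments per kilobase of transcript scaled to mapped fragments. The choice compared tissue means of log2(FPKM + 1). Genes whose 2 internode means lay less than 0.585 apart on that scale, a 1.5-fold difference, were kept, which left 105741 genes. The score of a gene was the lowest of the spikelet and internode means minus the meristem mean, so that a high score marks a low meristem level. The 200 highest scores were taken. The genes were thus chosen by their FPKM in these same libraries. They had to be low in the meristem, so their meristem levels are described here and no conclusion is drawn from a test of them.

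All libraries came from the inbred line B73, the line behind the maize reference genome, and the labels name no treatment, age or mutation. The meristem samples are labelled Vegetative Meristem & Surrounding Tissue (2 libraries), so they hold young tissue around the dome as well as the dome itself. The other groups are mature female spikelets (3 libraries), the flower-bearing units of the ear, and the stem segments Internode 7-8 and Internode 6-7 (3 libraries each). The labels list 68 samples of 23 tissues. The remaining tissues were not analysed here, so "lowest in the meristem" refers to these 4 tissues.

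The shoot apical meristem is a dome of small dividing cells that gives rise to leaves and stem. Cells that leave it enlarge by taking up water into a growing vacuole, which needs proton pumps, water channels and wall-loosening proteins. As they mature they also take on chloroplasts, thickened walls and the metabolism of the finished organ.

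The tissue labels were set against marker genes, read as summed FPKM per library. Flower markers (9 MADS box genes) summed to 3.85 to 6.59 in the meristem, against 1417 to 1507 in spikelets, 13.5 to 17.9 in internode 7-8 and 8.50 to 10.6 in internode 6-7. This set includes m4, which is among the genes chosen as low in the meristem. It averaged 2.205, 74.4, 9.47 and 6.39 FPKM in the same order. Much of the internode sums thus came from a chosen gene, so nothing is read from their height above the meristem. The spikelet sums rest little on m4. Of 32 meristem and young leaf markers 20 were highest in the meristem, as were 8 of 13 markers of dividing cells and 4 of 5 epidermis markers. The meristem and young leaf markers include knox3, which is also among the chosen genes. Photosynthesis markers (16 genes) summed to 313 to 329 in the meristem, 695 to 698 in spikelets, 592 to 1950 in internode 7-8 and 1599 to 2009 in internode 6-7. The symbol match took in psat1, which averaged 141, 195, 224 and 188 FPKM of these sums in the same order. It also took in the chosen gene rbcS (GRMZM2G098520), which averaged 12.9, 56.3, 63.8 and 90.6 FPKM. Markers of lignifying stem (3 genes) were all highest in internode 6-7. They summed to 70.7 to 71.1 in the meristem, 72.1 to 81.4 in spikelets, 96.1 to 143 in internode 7-8 and 132 to 154 in internode 6-7. These sums set the tissues apart less than those of the flower markers. The number of reads is unknown. A rough measure of relative depth, read from low values and set to 1 in internode 6-7 library 2, gave 0.683 and 0.865 for the meristem, 0.403 to 0.712 for spikelets and 0.865 to 1.24 for the remaining internode libraries.

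Most of the 200 genes were lower in the meristem, not missing from it. Their mean meristem level reached at least 1 FPKM in 160 genes, at least 10 FPKM in 62 and at least 100 FPKM in 10, up to 434 FPKM. The median gene stood at 4.42 FPKM in the meristem, against 32.2 in spikelets, 17.2 in internode 7-8 and 18.7 in internode 6-7. Only 9 genes were listed at 0 in both meristem libraries, and 7 of these were also at 0 in a library of another tissue. Together the 200 genes held 0.376% and 0.443% of the summed FPKM of the meristem libraries, against 1.94% to 2.53% in spikelets, 1.41% to 1.65% in internode 7-8 and 1.66% to 1.81% in internode 6-7. The samples are whole tissues, so fewer cells of a type and less RNA per cell cannot be told apart.

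**Figure D1:**
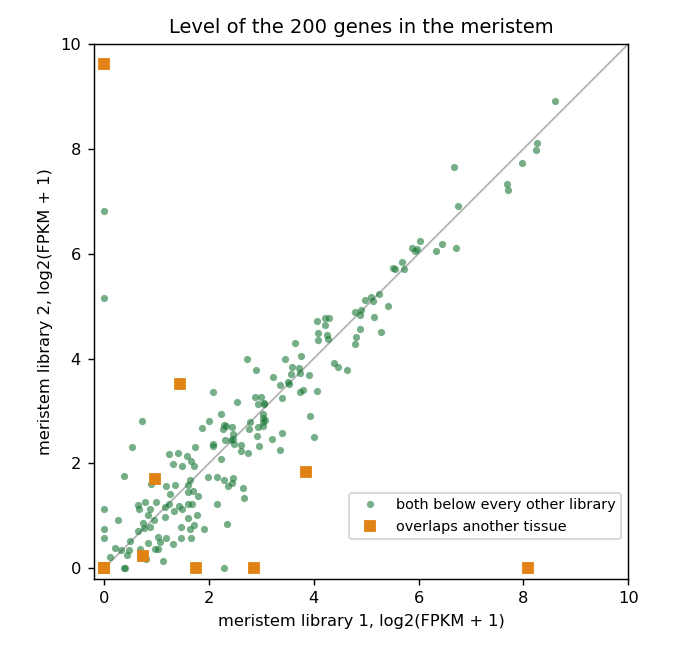
Level of each of the 200 genes in meristem library 1 (horizontal axis) and library 2 (vertical axis), as log2(FPKM + 1); the line marks equal values. Circles are the 185 genes with both meristem libraries below every other library and squares are the 15 that overlap another tissue; most genes lie well above 0 in both libraries, and the points on an axis are genes listed at 0 in 1 library.

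Scores ran from 4.59 down to 1.21 with a median of 1.46, a 2.74-fold difference on the FPKM + 1 scale. A score of at least 2 was reached by 24 genes, and 117 lay under 1.5. No gap marks the edge of the choice. The last genes inside were GRMZM2G073954, AC209328.3_FG001 and GRMZM5G892957, with scores of 1.22, 1.21 and 1.21, and the first outside were GRMZM2G132303, GRMZM2G059412 and GRMZM2G419643, with 1.20 each. GRMZM5G892957 shows how high a chosen gene can stand in the meristem, at 276 ± 34 FPKM (SD, n = 2) there against 660.2 ± 142 in spikelets, 651 ± 166 in internode 7-8 and 867 ± 204 in internode 6-7 (n = 3 each). In 185 genes both meristem libraries lay below every other library. Genes that reached 1 FPKM in 2 or more libraries, 29827 in all, are called tested genes from here on, and 7.31% of them did so, but the choice itself sets this count. Likewise 190 of the 200 were called lower in the meristem than in the mean of the other tissues, against 5.28% of tested genes. Calls used the fit and thresholds given below. The choice had already set the meristem low in these genes, so this count cannot serve as a test and nothing is read from it.

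**Figure D2:**
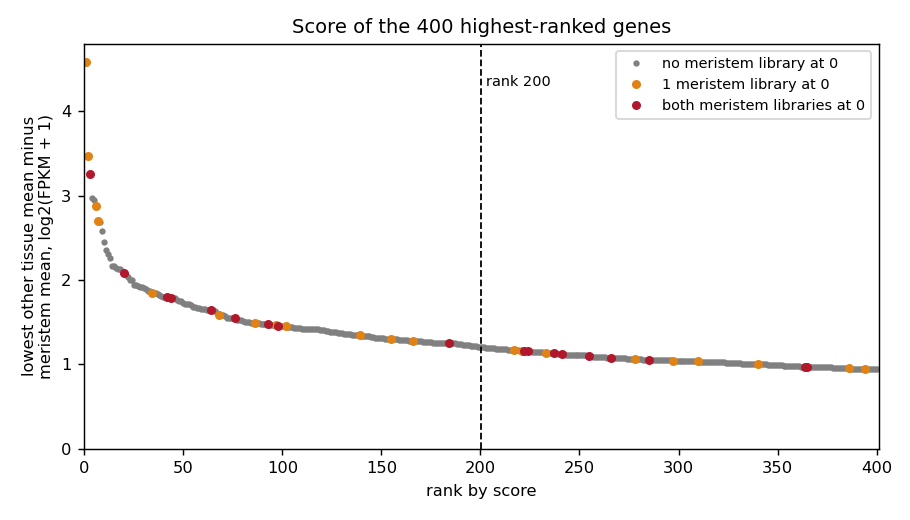
Score (vertical axis, lowest other tissue mean minus meristem mean, log2(FPKM + 1)) of the 400 highest-ranked genes by rank; the dashed line stands at rank 200. Colours mark genes with 1 or both meristem libraries at 0; scores fall steeply over the first 15 ranks and then slowly, from 2.17 at rank 15 to 1.21 at rank 200.

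A reference gene table matched 112 of the 200 identifiers and gave 28 a name. None of the 28 named genes was at 0 in any library. They fall into cytoskeleton and wall, pumps and channels, carbon metabolism, and regulation and defence, and the remaining 172 genes can be described by identifier alone.

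Among cytoskeleton genes, tub3 (GRMZM2G108766), a beta-tubulin of the microtubules, had the highest score of the named genes, 2.17. Its values were 34.4 and 26.8 FPKM in the meristem, 188, 170.2 and 165 in spikelets, 124, 132 and 169 in internode 7-8 and 193, 208 and 214 in internode 6-7. The lowest library outside the meristem stood 3.59-fold above the higher meristem library, and the spikelet mean lay between those of the internodes. The actin gene act1 (GRMZM2G126010), whose product builds the other filament system, was far less abundant. It had 0.567 and 1.32 FPKM in the meristem, 11.3, 9.88 and 8.51 in spikelets, 4.15, 4.21 and 3.32 in internode 7-8 and 4.40, 4.43 and 3.86 in internode 6-7. Here spikelets stood above both internodes, whose libraries overlapped each other.

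The expansin gene expa1 (GRMZM2G339122), which encodes a protein that loosens the growing wall, had 8.16 and 4.55 FPKM in the meristem, 92.0, 187 and 242 in spikelets, 19.4, 15.9 and 30.0 in internode 7-8 and 27.8, 23.3 and 23.9 in internode 6-7. Its lowest internode library was 1.95-fold above the higher meristem library, and spikelets were higher again. Phospholipase D gene PLD1 (GRMZM2G054559), whose product cuts membrane lipids, had 6.68 and 7.72 FPKM in the meristem, 62.5, 52.1 and 106 in spikelets, 40.4, 28.5 and 35.1 in internode 7-8 and 46.8, 40.8 and 47.2 in internode 6-7. The order of its tissues was spikelets, internode 6-7, internode 7-8 and meristem, with no overlap between spikelets and internodes.

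Both named genes of the plasma membrane proton pump, which acidifies the wall and powers nutrient uptake, were among the 200. For mha4 (GRMZM2G006894) the meristem held 6.70 and 5.44 FPKM, spikelets 28.8, 23.7 and 49.7, internode 7-8 29.4, 14.4 and 23.6 and internode 6-7 36.4, 26.8 and 36.1. For mha2 (GRMZM2G019404) the meristem held 21.0 and 13.3 FPKM, spikelets 35.5, 26.2 and 79.4, internode 7-8 56.9, 42.3 and 45.4 and internode 6-7 67.5, 64.3 and 83.3. In both genes spikelet library 3 was well above the other spikelet libraries, and spikelets overlapped the internodes.

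At the vacuole, vpp3 (GRMZM2G421857), a pyrophosphatase that pumps protons into it, had 61.6 and 67.5 FPKM in the meristem, 325, 285 and 281 in spikelets, 174, 171 and 137 in internode 7-8 and 189, 218 and 211 in internode 6-7. The 4 tissues did not overlap in this gene. TIP4-4 (GRMZM2G093090), a water channel family member of the vacuolar membrane, had 4.09 and 0.786 FPKM in the meristem, 165, 154 and 112 in spikelets, 6.05, 10.1 and 13.3 in internode 7-8 and 12.2, 11.2 and 14.2 in internode 6-7. The meristem libraries of TIP4-4 differed 5.21-fold from each other, and the lowest internode library was 1.48-fold above the higher one.

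In carbon metabolism, both named fructose-bisphosphate aldolase genes, which encode an enzyme of glycolysis and the Calvin cycle, were among the 200. The more abundant, ald1 (GRMZM2G057823), had 204 and 161 FPKM in the meristem, 516, 415 and 713 in spikelets, 508, 539 and 671 in internode 7-8 and 692, 785 and 823 in internode 6-7. The other, aldolase2 (GRMZM2G066024), averaged 4.70 ± 0.310 FPKM in the meristem (SD, n = 2), against 14.5 ± 3.94 in spikelets, 18.5 ± 1.31 in internode 7-8 and 16.5 ± 0.604 in internode 6-7 (n = 3 each). Neither passed the test between spikelets and internodes given below.

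A gene named rbcS (GRMZM2G098520), for the small subunit of the carbon-fixing enzyme Rubisco, had 14 and 11.9 FPKM in the meristem, 87.8, 42.5 and 38.5 in spikelets, 42.6, 75.5 and 73.2 in internode 7-8 and 76.2, 108 and 87.7 in internode 6-7. Rubisco small subunit genes are nearly identical copies, and reads may have been shared among them. The phosphoenolpyruvate carboxylase gene pep7 (GRMZM2G069542) averaged 15 ± 5.05 FPKM in the meristem, 40.1 ± 21.8 in spikelets, 61.3 ± 2.36 in internode 7-8 and 75.5 ± 3.33 in internode 6-7. Spikelet library 3 of pep7, at 65.3 FPKM, stood apart from the 27.0 and 28.0 of the other spikelet libraries. The gene pdrp1 (GRMZM2G131286), for the regulator of the C4 enzyme pyruvate phosphate dikinase, averaged 2.65 ± 0.452 FPKM in the meristem, against 23.5 ± 1.75, 10.6 ± 2.98 and 9.21 ± 4.11 in spikelets, internode 7-8 and internode 6-7.

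Enzymes of nitrogen and aldehyde metabolism followed. GAD (GRMZM2G017110), glutamate decarboxylase, which makes gamma-aminobutyrate, had 28.3 and 27.4 FPKM in the meristem, 261, 220.2 and 226 in spikelets, 66.3, 61.9 and 87.3 in internode 7-8 and 112, 83.8 and 83.4 in internode 6-7. Its spikelet libraries lay far above the internode libraries. The aldehyde dehydrogenase gene rf2 (GRMZM2G058675), known as a fertility restorer, had the opposite order outside the meristem, with 29.0 and 29.3 FPKM in the meristem, 67.9, 61.1 and 80.0 in spikelets, 91.6, 91.5 and 94.3 in internode 7-8 and 102, 105 and 108 in internode 6-7. The 4 tissues of rf2 did not overlap. AKHSDH1 (GRMZM2G389303), a bifunctional enzyme gene of amino acid synthesis from aspartate, averaged 10.2 ± 6.56 FPKM in the meristem and 23.7 to 25.5 FPKM in the other tissues, and its name is shared by further identifiers. The protein disulfide isomerase gene pdi2 (GRMZM2G163421), which helps secreted proteins fold, averaged 6.73 ± 0.562 FPKM in the meristem, 37.5 ± 3.36 in spikelets, 21.3 ± 2.42 in internode 7-8 and 29.1 ± 2.80 in internode 6-7.

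Regulators among the 200 included a GATA factor, GATA28 (GRMZM2G101058), and a CONSTANS-like factor, COL8 (GRMZM2G114137), both transcription factors. GATA28 had 15.7 and 9.44 FPKM in the meristem, 39.7, 46.6 and 80.3 in spikelets, 66.6, 74.7 and 80.9 in internode 7-8 and 91.1, 99.9 and 98.5 in internode 6-7. COL8 had 0.972 and 0.293 FPKM in the meristem, 4.46, 7.56 and 3.05 in spikelets, 7.35, 10.8 and 9.85 in internode 7-8 and 10.9, 10.6 and 10.4 in internode 6-7. In both genes internode 6-7 was highest on average and spikelets were lowest of the tissues outside the meristem.

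A pair of MADS box genes, from a family of floral organ regulators, stood out by a high spikelet level. The first, m15 (GRMZM2G553379), had 0.669 and 0.821 FPKM in the meristem, 76.1, 77.5 and 53.0 in spikelets, 2.96, 5.26 and 4.66 in internode 7-8 and 5.56, 5.50 and 4.50 in internode 6-7. The other, m4 (GRMZM2G032339), had 0.442 and 3.97 FPKM in the meristem, 85.4, 80.5 and 57.2 in spikelets, 7.58, 11 and 9.85 in internode 7-8 and 6.41, 7.10 and 5.65 in internode 6-7. Both were thus present in the stem at a low level and lower still in the meristem, where the libraries of m4 differed 8.98-fold.

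The homeobox gene knox3 (GRMZM2G000743) belongs to the family of kn1, which marks the meristem. It had 10.5 FPKM in each meristem library, 40.2, 64.5 and 25.7 in spikelets, 33.5, 26.9 and 33.9 in internode 7-8 and 24.2, 26.2 and 29.6 in internode 6-7. Of 9 tested KNOX genes it alone had its lowest mean in the meristem, which the choice itself set for knox3. SnRK2.11 (GRMZM2G063961), a kinase of a family that acts in responses to water stress, averaged 6.43 ± 2.28 FPKM in the meristem, 16.2 ± 3.11 in spikelets, 33.9 ± 1.61 in internode 7-8 and 36.8 ± 3.64 in internode 6-7. The defence gene pr5 (GRMZM2G402631), of the thaumatin-like pathogenesis-related proteins, had 1.5 and 0.372 FPKM in the meristem, 88.1, 52.5 and 58.7 in spikelets, 2.84, 5.77 and 4.86 in internode 7-8 and 2.24, 4.3 and 4.53 in internode 6-7. Its lowest internode library was 1.49-fold above the higher meristem library.

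The remaining named genes were sfp3 (GRMZM2G042171), GT1 (GRMZM2G421491), pglcat7 (GRMZM2G160585) and cyp12 (GRMZM2G091588). Their meristem means were 5.62, 7.23, 2.00 and 0.272 FPKM, and their lowest other means were 16.6, 20.8, 9.36 and 2.03 FPKM, in that order. In all 4 genes both meristem libraries lay below every other library.

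**Figure D3:**
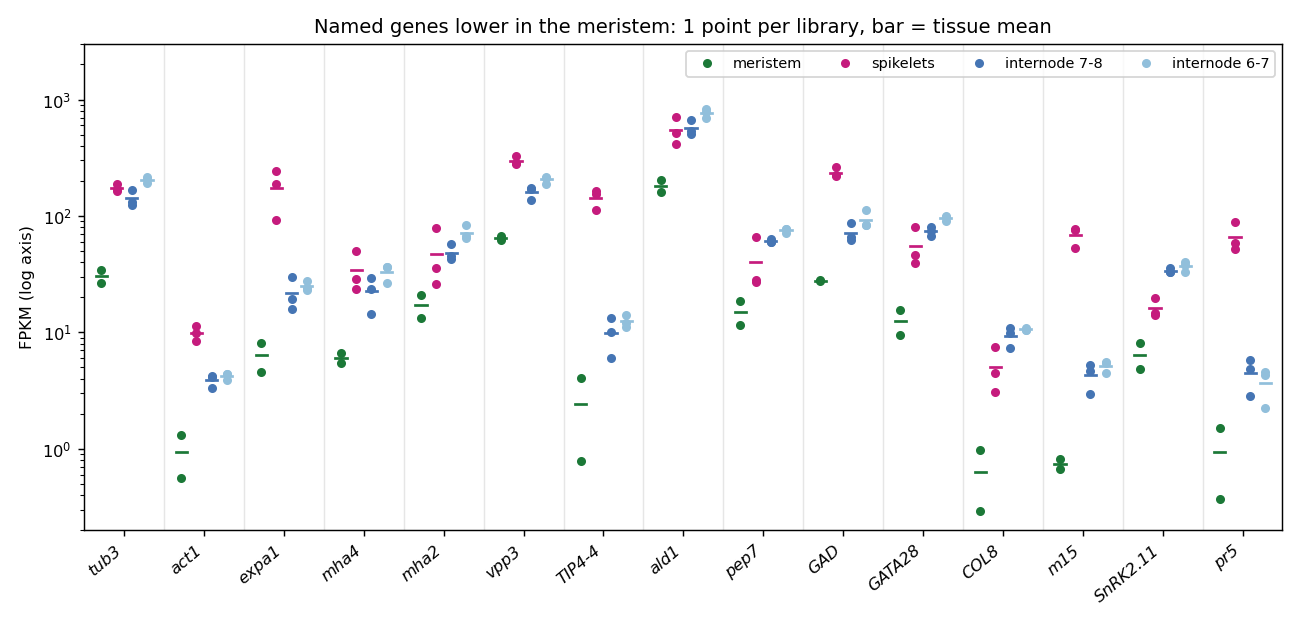
FPKM on a log axis of 15 named genes, with 1 point per library and a bar at the tissue mean, for the meristem, spikelets, internode 7-8 and internode 6-7 from left to right within each gene. The meristem points are the lowest of each gene; spikelets stand apart above the internodes in TIP4-4, expa1, m15 and pr5, at 12.8, 7.44, 14.5 and 16.2 times the internode mean.

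Values of exactly 0 shaped the top of the ranking. Of the 15 highest scores 5 belong to genes with a 0 in some library, and a 0 in this kind of file can be a failed estimate. GRMZM2G498314, at rank 1, had 0 and 112 FPKM in the meristem, 196, 283 and 299 in spikelets, 508, 416 and 199.5 in internode 7-8 and 368, 291 and 377 in internode 6-7. In GRMZM2G541204, at rank 2, the meristem libraries had 0 and 783 FPKM, and the second value lies above every library of the other tissues, which ran from 271 to 736. Its score thus rests on 1 library. The same holds for GRMZM5G887817, at 272 and 0 FPKM in the meristem, and for GRMZM2G050878, at 0 and 34.4 FPKM, although the second value of GRMZM2G050878 lay below every other library. GRMZM2G496743 was at 0 in 6 of 11 libraries, and its others ran from 874 to 5282 FPKM. In all, 12 genes had a 0 in 1 meristem library and 179 had no 0 in any library. Of the 15 genes whose meristem overlapped another tissue 11 had a 0.

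Other leading genes had no 0, and their libraries of 1 tissue spread to different degrees. GRMZM5G835286 had 26.7 and 28.5 FPKM in the meristem, 226, 101 and 214 in spikelets, 116, 172 and 479.9 in internode 7-8 and 541, 231 and 221 in internode 6-7. GRMZM2G060183 had 7.14 and 6.68 FPKM in the meristem, 60.4, 46.2 and 35.3 in spikelets, 31.8, 34.9 and 45.8 in internode 7-8 and 38.1, 47.7 and 44.1 in internode 6-7. GRMZM2G477846 averaged 25.5 ± 4.15 FPKM in the meristem, 119.7 ± 11.1 in spikelets, 119 ± 21.1 in internode 7-8 and 128 ± 18.2 in internode 6-7. GRMZM5G835286 agreed closely within the meristem and varied widely within each internode, while GRMZM2G477846 was close to level outside the meristem, with means that differ by less than 1 SD of the internode libraries. Among the rest of the leading genes, GRMZM5G837563, GRMZM2G038003, GRMZM2G114127, GRMZM2G109787 and GRMZM2G149443 averaged 9.87, 1.39, 2.71, 1.5 and 3.44 FPKM in the meristem, with lowest other means of 75.6, 16.8, 25.3, 12.9 and 18.9 FPKM. The meristem libraries of GRMZM5G837563, at 15.1 and 4.66 FPKM, GRMZM2G038003, at 2.1 and 0.685, and GRMZM2G149443, at 5.35 and 1.53, lay far apart from each other but below the other tissues.

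Each meristem library was also read in genes chosen without it. The spikelet and internode means it was set against still took part in that choice, so the readout is independent of the choice in part. When the 200 genes were chosen again with meristem library 1 alone, library 2 lay below the lowest other tissue mean in 180 of them, by a median of 1.22 on the log2 scale and by at least 1 in 120. Among 26078 genes 1.54% lay that far below, and the median was -0.61. With library 2 alone for the choice, library 1 lay below in 188, by a median of 1.27 and by at least 1 in 134, against 1.6% of genes. The choices shared 136 and 148 genes with the 200. The left-out library lay below every library of the other tissues in 152 and 165 genes, against 10.1% and 10.9% of genes. No source states that the 2 libraries came from separate plants.

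The score takes the lowest of the spikelet and internode means, so the values compared next also took part in the choice, and the adjusted p-values are not independent of it. The comparison was fitted over the 29827 tested genes as spikelets minus the mean of the internodes, with limma on log2(FPKM + 1), adjusted by Benjamini-Hochberg. A gene was called at an adjusted p under 0.05 and a difference of at least 1. Of the 200 genes 62 were called, 31.0%, against 29.4% of tested genes, so the share called was near the background. Spikelets were higher in 55 genes, 27.5%, against 12.7% of tested genes, and lower in 7 genes, 3.5%, against 16.8%. Among 18479 tested genes as alike between the internodes and at least as high outside the meristem as the lowest of the 200, 8.5% were higher in spikelets and 15.7% lower. Neither background had to be low in the meristem, so these shares are a description and no excess is read from them.

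Without a threshold, and as a description in the same sense, the difference was positive in 126 of the 200 genes, against 38.6% of tested genes. The median was 0.32 in the 200 genes and -0.26 in tested genes. Median-of-ratios scaling, which sets the libraries to equal typical levels, moved the median of tested genes to -0.04 and that of the 200 genes to 0.60. Of the called genes among the 200, 88.7% were higher in spikelets as deposited and 95.5% after scaling, against 43.0% and 60.3% of the called tested genes. All spikelet libraries lay above all internode libraries in 65 genes, 32.5%, against 18.0% of tested genes, and below them in 12, 6.0%, against 26.4%. The remaining 138 genes passed in neither direction, and 100 of these differed by less than 0.585. Among the 138 were GRMZM2G050878 (1.04) and GRMZM5G887817 (1.02), each with 1 meristem library at 0. In the main fit, which includes the meristem libraries, their limma adjusted p-values were 0.287 and 0.505. With spikelets and internodes alone in the fit they were 0.00128 and 0.00442, and both genes were called higher in spikelets.

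**Figure D4:**
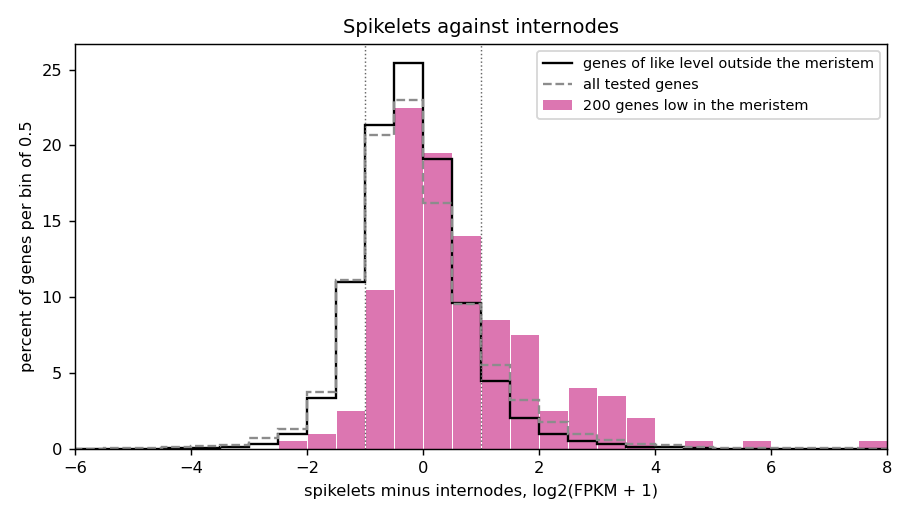
Spikelets minus internodes on log2(FPKM + 1) (horizontal axis) as percent of genes per bin of 0.5. Bars are the 200 genes and the dashed line is all tested genes. The solid line is genes alike between the internodes and at least as high outside the meristem as the lowest of the 200. That set has no upper limit on level. Dotted lines stand at a difference of 1. The bars lie to the right of both lines, with medians of 0.32 for the 200 genes and -0.26 for tested genes.

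The 55 genes higher in spikelets had differences of 1.10 to 7.91, with medians of 1.79 FPKM in the meristem, 58.5 in spikelets and 9.34 in the internodes. In 18 of them the meristem mean was under 1 FPKM. Named genes made up 9 of the 55. Besides pr5 at 3.74 (SE 0.28, limma adjusted p = 3.32e-06), m15 at 3.61 (SE 0.19, adjusted p = 2.5e-07) and TIP4-4 at 3.59 (SE 0.32, adjusted p = 9.23e-06), they were m4 at 3.09, expa1 at 2.76, sfp3 at 1.96, GAD at 1.53, pdrp1 at 1.23 and act1 at 1.10, with adjusted p-values from 1.31e-06 to 0.0029. These 9 calls held under every alternative tried.

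The 3 largest differences belonged to genes with no name. GRMZM2G357865 had 0.411 and 0.436 FPKM in the meristem, 166, 277 and 360.2 in spikelets, 3.98, 2.94 and 7.17 in internode 7-8 and 4.16, 1.22 and 3.24 in internode 6-7, a difference of 5.84 (SE 0.33, limma adjusted p = 4e-07). GRMZM2G409312 had 0.571 and 0.643 FPKM in the meristem, 319, 177 and 178 in spikelets, 7.67, 5.29 and 9.25 in internode 7-8 and 10.2, 8.71 and 10.8 in internode 6-7, a difference of 4.52 (SE 0.22, adjusted p = 1.34e-07). Both are spikelet genes with a low stem level and a lower meristem level. GRMZM2G099454, the fifth after pr5, was more abundant, with 23.8 and 12.8 FPKM in the meristem, 1522, 897 and 612 in spikelets, 101, 89.2 and 72.2 in internode 7-8 and 55.3, 70.1 and 71.1 in internode 6-7, a difference of 3.63 (adjusted p = 3.23e-06). The value of 7.91 belongs to GRMZM2G496743 (adjusted p = 0.0203), which rests on the 0 values given above and lost its call without spikelet library 1 (adjusted p = 0.0721) or library 2 (adjusted p = 0.0549).

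The 7 genes lower in spikelets differed by -2.09 to -1.08. GRMZM2G042181 had 104 and 67.6 FPKM in the meristem, 177, 207 and 443 in spikelets, 529.7, 848 and 1267 in internode 7-8 and 1055, 918 and 928 in internode 6-7, a difference of -1.82 (limma adjusted p = 0.000858). GRMZM2G135930 had 4.42 and 5.49 FPKM in the meristem, 12.3, 13.5 and 16.6 in spikelets, 40.7, 40.1 and 33.7 in internode 7-8 and 36.9, 39.0 and 39.8 in internode 6-7, a difference of -1.38 (adjusted p = 1.82e-05). In these genes spikelets lay between meristem and stem. GRMZM5G817571, at -2.09, GRMZM5G821841, at -1.20, and GRMZM5G860369, at -1.16, followed the same order of means. SnRK2.11 was the 1 named gene of the 7, at -1.10 (SE 0.17, adjusted p = 0.000347). After scaling SnRK2.11, GRMZM5G821841 and GRMZM5G860369 fell short of a difference of 1, at -0.82, -0.93 and -0.89. Scaling left 3 of the 200 genes called lower, against 3251 of 29817 tested genes.

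Of the named genes with no call, PLD1 (0.82), vpp3 (0.71), cyp12 (0.63), pdi2 (0.57), rf2 (-0.50), GATA28 (-0.66), pep7 (-0.87) and COL8 (-0.93) had limma adjusted p-values from 0.000759 to 0.0236 and a difference under 1. PLD1 passed 1 without spikelet library 2 (1.03) and after scaling (1.11), COL8 without spikelet library 2 (-1.21) and with a pseudocount of 0.1 (-1.06), and pep7 without spikelet library 3 (-1.28). For tub3, at 0.04 (SE 0.13, adjusted p = 0.833), and ald1, at -0.30 (SE 0.18, adjusted p = 0.174), the difference did not pass at any size.

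The internode means of the 200 genes had to lie close, and they differed by -0.58 to 0.57, as internode 7-8 minus internode 6-7. None was called, against 0.124% of tested genes. Within this limit 151 genes had the lower mean in internode 7-8, with a median difference of -0.25 against -0.04 in tested genes. Internode 7-8 had the higher mean in 24.5% of the 200, against 44.7% of tested genes. Among the 18479 genes within the limit and at least as high outside the meristem as the lowest of the 200, 50.9% had the lower mean there. Every internode 7-8 library lay below every internode 6-7 library in 41 genes, 20.5%, against 11.1% of tested genes and 7.61% of those 18479 genes. They lay above in 6 genes, 3.0%, against 8.15%. Internode 7-8 had the lowest of the 3 means outside the meristem in 104 genes, spikelets in 57 and internode 6-7 in 39. No share over all genes was computed for these last counts, so nothing is read from them.

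Families of the named genes were read over all their tested members, with the meristem mean lowest of the 4 tissues in 19% of tested genes. The family counts include the genes among the 200, which the rule itself set lowest in the meristem. No excess over 19% is read from them. It was lowest in 8 of 10 tubulin genes, 4 of 6 actin genes, 10 of 15 protein disulfide isomerase genes, 10 of 23 genes with an aquaporin symbol, 4 of 14 expansins and 12 of 36 MADS genes. In each of these families 1 gene was among the 200, except for 2 MADS genes. Between spikelets and internodes 13 expansin genes passed as higher and none as lower, 11 aquaporins as higher and 1 as lower, 27 MADS genes as higher and 5 as lower, and no tubulin gene as higher and 5 as lower. Of the proton pumps, both plasma membrane genes and 2 of 3 vacuolar genes were lowest in the meristem, and none passed between spikelets and internodes. Both plasma membrane genes and 1 of the vacuolar genes are among the 200, so the choice set their place. Of 7 SnRK2 genes 4 were lowest in the meristem, of 5 GATA genes 2, of 4 CONSTANS-like genes 2 and of 3 phosphoenolpyruvate carboxylase genes 2. In each of these 1 gene is among the 200. The 1 phospholipase D gene, PLD1, is itself among the 200 and so was lowest by the choice.

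**Figure D5:**
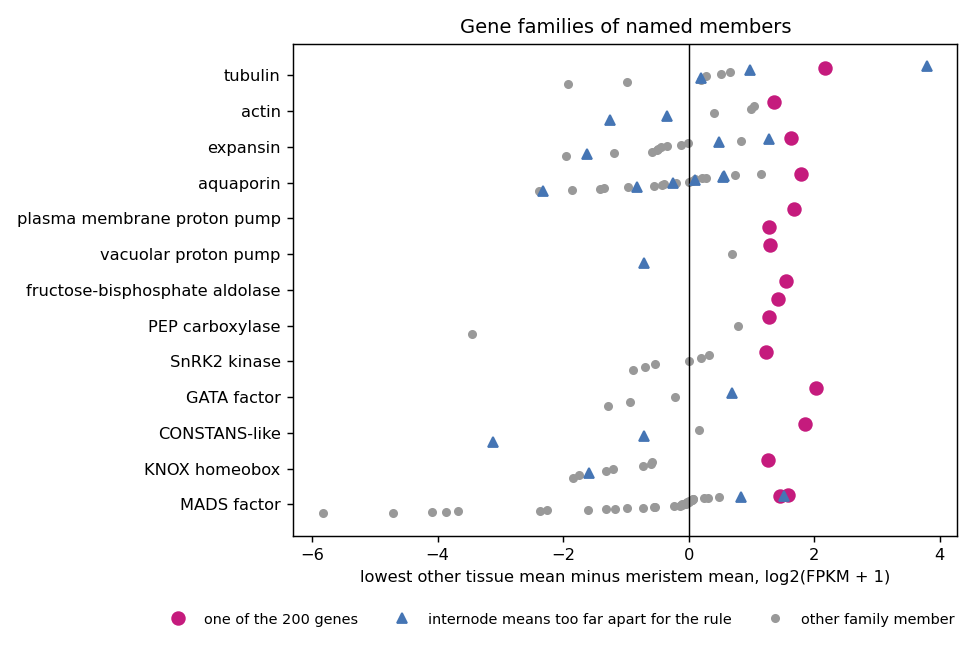
Lowest other tissue mean minus meristem mean on log2(FPKM + 1) (horizontal axis) for every tested gene of 13 families (rows); values right of 0 are lowest in the meristem. Large circles are among the 200 genes, triangles have internode means at least 0.585 apart and so could not be chosen, and small circles are other members; the triangle farthest to the right is tub4, at 3.80.

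Of 28 gene lists matched by symbol, 21, with 3 to 47 tested genes each, held none of the 200. At 0.671% of tested genes a list of that size would hold few or none by its size alone, so nothing is read from these zeros. The C4 and Calvin cycle list held 2 of 22 genes, pep7 and rbcS (9.09%), and 10 were lowest in the meristem; the dehydration and ABA list held 1 of 53 (1.89%) and the homeobox list 1 of 47 (2.13%). These 3 lists also took in other kinds of gene by their symbols. Genes with photosystem or light-harvesting symbols were lowest in the meristem in 14 of 16 cases, yet none was chosen. Of these, 6 had a score as high as the 200 genes but internode means too far apart, and the others scored lower. The same limit kept out 151 tested genes with such a score. It kept out the beta-tubulin tub4 (GRMZM2G066191), with means of 2.94 FPKM in the meristem, 77.1 in spikelets, 53.2 in internode 7-8 and 162 in internode 6-7, and the proline-rich wall protein gene plr354a (GRMZM2G049915), with 5.50, 331, 197 and 355 FPKM in the same order.

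Position could be read for 109 of the 200 genes, those with 1 protein-coding gene in the reference table. No 2 of them were next to each other in its gene order, and 3 pairs lay 2 or 3 places apart.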

How the data were processed

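PolyA-selected, dUTP strand-marked RNA-seq libraries were made, per the labels' protocols. The authors deposited FPKM per gene, made with Bowtie2 2.1.0, TopHat2 2.0.8b and Cufflinks 2.1.1, per the submitters' processing notes. For build, annotation and strand setting, details were not given in the sources used here. Overlapping and antisense genes may not be told apart. The 11 columns whose names fit a tissue label were used, with the meristem and spikelet columns read as initials. Internode columns carry the numbers 2 to 4, which are not those of the titles. The other 57 value columns were not used.

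Members and gene lists were chosen with earlier results of these data known. Lists are patterns on gene symbols, which can take in unrelated genes of similar symbol. The families named for a member (proton pumps, aldolase, phosphoenolpyruvate carboxylase, actin, protein disulfide isomerase, SnRK2, GATA, CONSTANS-like, KNOX, phospholipase D) were added after the members' names were seen, and genes of other kinds were dropped from 2 matches after counts were seen (14-3-3 genes under GRF, and kinase, myosin, MYB and transporter genes under MADS).

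The 29827 genes that reached 1 FPKM in 2 or more libraries were fitted on the log2(FPKM + 1) scale, using R 4.3.3 and limma 3.58.1, with a variance trend, all 11 libraries and two-sided tests, adjusted by Benjamini-Hochberg. All 200 genes passed this filter. A pseudocount of 1 understates differences of low genes. The procedure was tested on simulated data. Replicates are not stated to be separate plants, so p-values measure the spread between libraries, which may be technical. No 2 columns were identical. Named genes are the 15 highest scores, every member with a symbol, the 5 largest called differences each way and 3 genes each side of rank 200; tub4 and plr354a were named after their values were seen. Names come from RefSeq for Zm-B73-REFERENCE-NAM-5.0, and no coordinates are given because the files' build is unknown. Promoter and protein sequences were not analysed here.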

Additional observations from a re-analysis of the deposited data

How the results depend on the processing

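The direction of the contrast between spikelets and internodes kept its sign in the median of the 200 genes under every alternative for which it was computed. The number called ran from 59 to 68. As deposited 31.0% of the 200 genes were called, against 29.4% of tested genes, so nothing is read from its size. Median-of-ratios scaling gave 3 genes lower in spikelets, against 7 as deposited, and a median difference of 0.603, against 0.321; the cause was not tested. Over 29817 tested genes scaling gave 4941 higher and 3251 lower, against 3780 and 5004 of 29827 as deposited. Leaving out each spikelet or internode library in turn gave 61 to 68 called genes, 53 to 58 higher and 7 to 10 lower, and medians from 0.289 to 0.393. Of the 29358 to 29751 genes then tested, 3339 to 4047 were called higher and 4244 to 6213 lower. With the library number as a replicate block 59 genes were called, 53 higher and 6 lower, against 3509 higher and 4988 lower over tested genes. GRMZM2G496743 (8.57, limma adjusted p = 0.0545) and SnRK2.11 (-0.97) lost their calls. Whether the numbers pair the samples is unknown. Over tested genes, deviations of same-numbered libraries correlated at -0.157 to 0.04 between spikelets and internodes. Between the internodes they correlated at -0.12 to 0.202. With 3 libraries per tissue these values cannot settle it.

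Which genes are chosen depended more on the settings. A pseudocount of 0.1 kept 103 of the 200 genes, which by construction ranks low genes higher. Dropping the internode limit kept 98 and widening it to 1 kept 127. A pseudocount of 0.5 kept 173, scaling 163, and leaving out genes at 0 in 1 meristem library 191. Without 1 library 136 to 188 were kept, the fewest without meristem library 2. In all 11 choices without a library 54 genes were kept, among them PLD1, GATA28, COL8, m15, ald1, pdi2 and aldolase2, and 34 were kept in all 17 alternatives. Depth in reads is unknown, and with 2 meristem libraries a low value or a 0 in 1 of them moves a score.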

Other observations

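Internode 6-7 library 2 and internode 7-8 library 4 were both above the other 4 internode libraries in 35 of the 200 genes, 17.5%, against 9.12% of tested genes. The share was 11.3% among the 18479 genes within the internode limit and at least as high outside the meristem as the lowest of the 200. None of these 35 genes had a 0. Both were below the other 4 in 15 genes, 7.5%, against 10.7%. GRMZM5G835286 is 1 of the 35, at 479.9 FPKM in internode 7-8 library 4 and 541 in internode 6-7 library 2, against 116 to 231 in the other internode libraries. Over tested genes the deviations of these 2 libraries from their tissue means correlated at 0.256. The pair was picked after the values were seen, and its part in the results was not tested.

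The meristem libraries differed by at least 1 on the log2 scale in 23 of the 200 genes, 11.5%, against 4.7% of tested genes. Library 1 was the higher in 101 of the 200. Spikelet library 3 was the lowest spikelet library in 78 genes, 39.0%, against 29.2% of tested genes, and the highest in 87, 43.5%, against 46.5%. Without genes that had a 0 in any library, 52 of 179 were called higher in spikelets than in the internodes and 7 lower. Of all tested genes, with or without a 0, 12.7% were called higher and 16.8% lower. No excess is read from these counts.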
